A study of Homo sapiens with 8 samples.

Results

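Chromosomes 4 and 13 are among the human chromosomes with the fewest genes for their length, and their SON signal was read here across all of their 100 kb windows. The members were every window named for either chromosome in the 9 deposited 100 kb sets, which gave 27540 of 278316 windows (9.90%), with 17190 on chromosome 4 and 10350 on chromosome 13. The sets are the same tiling shifted by 10 kb, so that each chromosome has 1910 and 1150 windows a set, and the 9 sets overlap and are not replicates. SON TSA-seq had been run on 786-O, an established line of human kidney cancer cells of the clear cell type that lacks working VHL and depends on HIF-2α, after 3 h with DMSO vehicle or with 2 µM PT2399, a small molecule that keeps HIF-2α from pairing with ARNT. The series holds 8 libraries, 2 SON pulldowns and 2 inputs for each treatment, all from this 1 line grown in RPMI medium with serum. Groups follow the sample titles. In 4 libraries, the DMSO pulldowns and the PT2399 inputs, other label fields give another antibody or treatment, and the direction of every change rests on the titles and on the column names control and treatment. The values are the authors' mean log2 concentration for each treatment and window, with no value per library, so the depth is unknown, no spread between replicates could be computed, and error is given by the FDR in the authors' deposited tables. The labels do not say whether the 2 pulldowns of a treatment came from separate cultures, so this FDR may reflect technical spread only. The tables hold no expression values, so the labelled cell line could not be checked against its markers.

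Nuclear speckles are bodies rich in splicing factors, and SON is one of the proteins that hold them together. In TSA-seq an enzyme on the SON antibody spreads biotin over nearby chromatin, so that DNA close to a speckle is pulled down more. Gene-dense, GC-rich chromatin tends to lie near speckles, whereas gene-poor chromatin tends to lie at the nuclear lamina, away from them. Chromosome 13 is acrocentric, and its short arm of repeated sequence is not assembled in hg19, the build of these files.

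The label was checked against a RefSeq gene table of assembly GRCh38, used here for names, chromosomes and gene order. Chromosome 13 had 338 protein-coding genes, or 2.94 per Mb, the lowest density of the 23 chromosomes other than Y. Chromosome 4 had 770, or 4.03 per Mb, the third lowest after chromosome 18. The chromosome 13 length counts the short arm, which is not assembled, and its rank against chromosome 18 without that arm was not computed. The other 21 chromosomes together had 6.91 per Mb. At the median, the promoters of these few genes were close in GC to all promoters. The median was 61.0% on chromosome 4 and 62.3% on chromosome 13. It was 62.3% over all chromosomes but Y and chromosome 8, which has no entry in the promoter table. The lower quartile was 48.0% on chromosome 4 and 52.1% on chromosome 13, against 53.0% over all coding promoters.

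The authors' lists of genes at windows lower with PT2399 held few genes of the 2 chromosomes. Of the 1023 genes in the 100 kb list, 986 matched the RefSeq table, of which 4 lay on chromosome 4 and 1 on chromosome 13. Over all protein-coding genes 4.29% were listed, against 0.390% on chromosome 4 and 0.296% on chromosome 13. The chromosome 4 genes were WFS1, which encodes wolframin of the endoplasmic reticulum membrane, CTBP1, a transcriptional corepressor, its divergent transcript (listed under the older name CTBP1-AS1), and MAEA, a subunit of a ubiquitin ligase. CTBP1 and MAEA are neighbours, the 36th and 37th coding genes from the start of the chromosome, and WFS1 is the 88th. The chromosome 13 gene was KCTD4, of the KCTD family of BTB domain proteins, which lies between GTF2F2 and TPT1. In the 50 kb list of 258 genes, ZNF732, a zinc finger gene near the start of chromosome 4, was the only one from either chromosome, and WFS1 was absent. The rule by which genes were tied to windows is not stated in the labels or headers.

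Promoter sequences of WFS1 and KCTD4 are shown because each has 1 entry in the RefSeq promoter table (GRCh38.p14, whose positions cannot be set against the hg19 windows), while CTBP1 has 3 and MAEA has 2. Each runs from 250 bases before to 50 after the gene's start, and capitals mark the HIF core motif, searched as ACGTG and GCGTG on both strands. WFS1 lies at chr4:6269600-6269899 on the plus strand and KCTD4 at chr13:45200996-45201295 on the minus strand.
WFS1: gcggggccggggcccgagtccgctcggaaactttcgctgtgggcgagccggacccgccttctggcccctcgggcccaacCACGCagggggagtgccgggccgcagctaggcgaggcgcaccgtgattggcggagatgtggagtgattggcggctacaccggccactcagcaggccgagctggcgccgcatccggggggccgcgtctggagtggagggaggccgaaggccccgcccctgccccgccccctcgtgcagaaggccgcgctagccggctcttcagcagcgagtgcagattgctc
KCTD4: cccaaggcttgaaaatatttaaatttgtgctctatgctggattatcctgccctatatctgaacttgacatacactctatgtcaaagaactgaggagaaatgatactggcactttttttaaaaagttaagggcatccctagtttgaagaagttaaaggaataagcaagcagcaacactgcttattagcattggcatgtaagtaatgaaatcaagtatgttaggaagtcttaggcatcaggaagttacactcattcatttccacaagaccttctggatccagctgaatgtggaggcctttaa
The WFS1 promoter was 73.3% GC with 33 CpG pairs and 1 match to the motif, a GCGTG read on the opposite strand. The KCTD4 promoter was 38.0% GC, below the lower quartile of 53.0% for the 22199 promoter entries of coding genes, and held 0 CpG pairs and 0 matches. Either form of the motif was found in 54.7% of those entries, in 57.1% of the 967 on chromosome 4 and in 60.8% of the 434 on chromosome 13. A match describes these letters only and is not a binding site.

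Most of both chromosomes carried the lowest value of the tables in both treatments, called the floor here (-0.07 with DMSO and -0.11 with PT2399; a window counts as at the floor when its mean is below 0). On chromosome 4, 87.2% of the 100 kb windows were at the floor (median over sets, range 86.8% to 88.0%; Wilson 95% interval 85.6% to 88.6% for 1665 of 1910 windows). This was the highest share of the 23 chromosomes. Chromosome 13 came second with 84.4% (range 84.0% to 85.0%; Wilson 95% interval 82.2% to 86.4% for 971 of 1150). The other chromosomes together had 58.5%. The intervals cover counting error only and treat neighbouring windows as independent, which they are not. Across the 23 chromosomes the floor share fell with the density of coding genes, with a Pearson's r of -0.88 and a Spearman's rho of -0.92, given as a description because all points come from the same libraries.

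**Figure D1:**
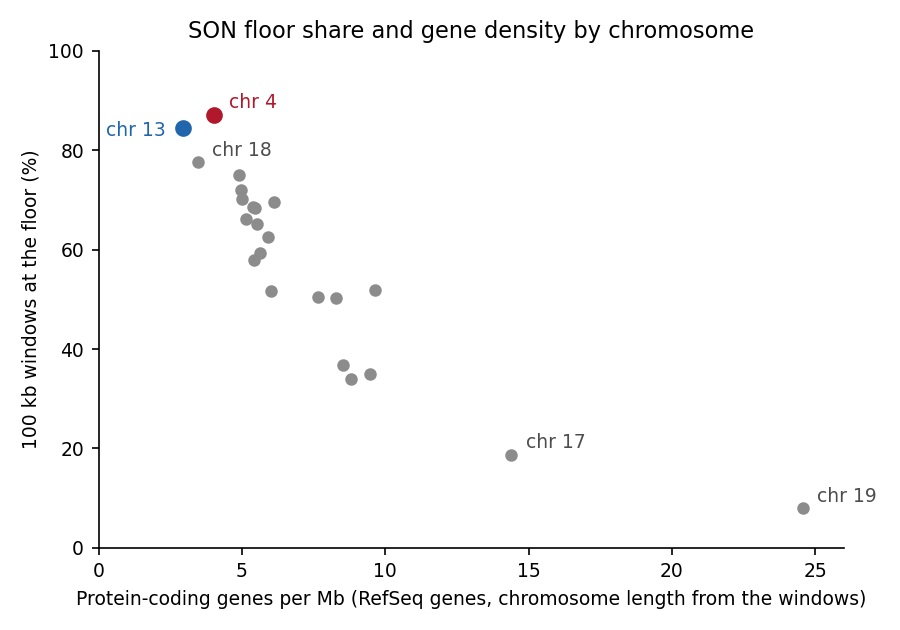
Each point is 1 of 23 chromosomes, with coding genes per Mb on the x axis and the percent of 100 kb windows at the floor (median over the 9 sets) on the y axis. Chromosomes 4 (87.2%) and 13 (84.4%) lie at the top left, above chromosome 18 (77.7%), and chromosome 19 (7.97%) lies at the bottom right.

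Part of the chromosome 13 share lay in its first 20.14 Mb, where every window was at the floor and which includes the unassembled short arm. Without that run the share was 81.1%. The longest run at the floor within the remainder was 33.69 Mb, from 53070001 to 86760000. On chromosome 4 the signal began with the first window, and the longest run at the floor was 15.17 Mb, from 154450001 to 169620000. Taken by treatment, DMSO was at the floor in 89.2% and PT2399 in 88.9% of chromosome 4 windows, and in 87.1% and 86.5% of those on chromosome 13. On the other chromosomes but Y the values were 61.2% and 61.0%.

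Most of the summed signal off the floor lay at 1 end of each chromosome, though windows off the floor also occurred elsewhere. On chromosome 4 the first 10 Mb, 5.23% of its length, held 90.7% of the summed linear DMSO concentration and 90.7% of that with PT2399, as well as 93.0% of the windows with both levels at least 8. In this block 95.8% of windows were off the floor. On chromosome 13 the last 10 Mb, 8.69% of its length, held 69.1% of the summed signal with DMSO and 69.7% with PT2399, and 96.1% of the windows at that level. The peak on chromosome 4 was the window from 940001 to 1040000, with 11.56 in DMSO and 11.48 in PT2399. The peak on chromosome 13, from 114500001 to 114600000, was lower, with 9.98 and 9.96.

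**Figure D2:**
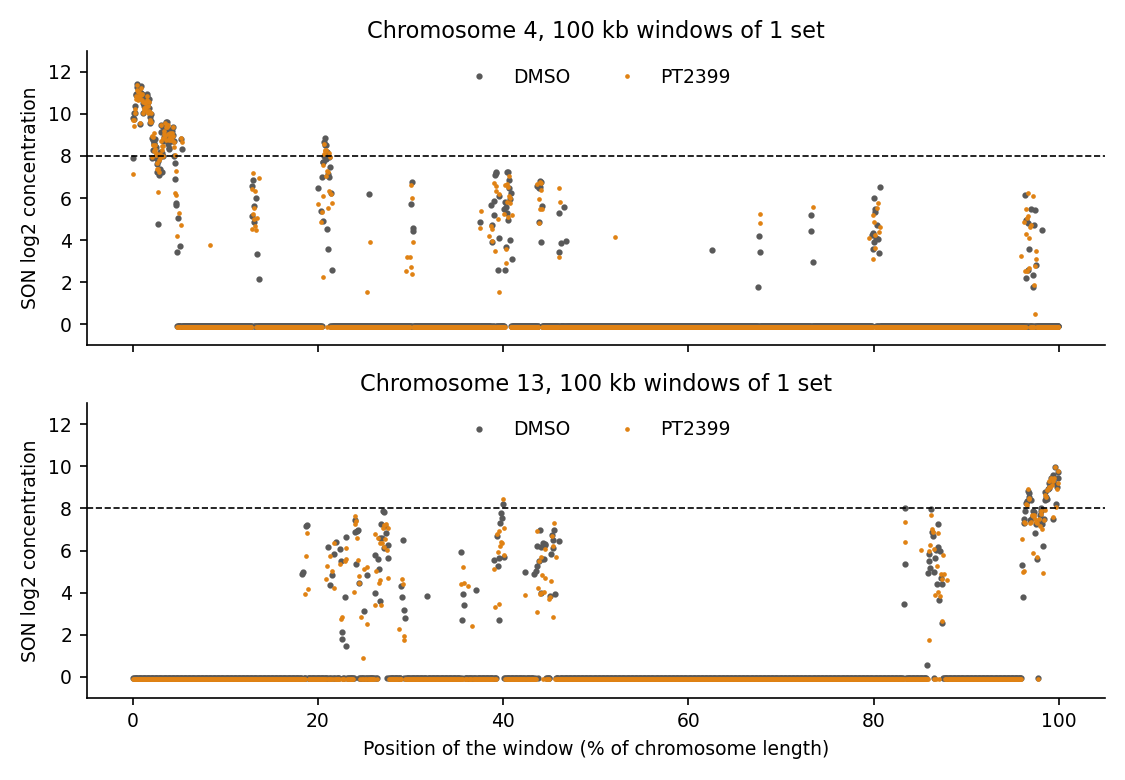
SON log2 concentration (y axis) of each 100 kb window of 1 set along chromosome 4 (top) and chromosome 13 (bottom), with position as percent of chromosome length and 1 point per treatment. The dashed line is the minimum of 8, which is passed mainly at the start of chromosome 4 and at the end of chromosome 13.

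Windows off the floor merged into 64 stretches on chromosome 4 and 40 on chromosome 13, most of them short. On chromosome 4 they covered 32.65 Mb with a median length of 205 kb, which includes the stretch of 9370 kb at the start, and 3 of them reached 8 in both treatments. On chromosome 13 they covered 23.45 Mb with a median of 290 kb, which includes the stretch of 4710 kb at the end, and 2 reached 8. The longest ones that did not reach 8 were 1910 kb on chromosome 4, from 183640001 to 185550000 with a highest DMSO value of 6.27, and 2220 kb on chromosome 13, from 98600001 to 100820000. The latter lay just outside the minimum, with a highest value of 8.10 in DMSO and 7.95 in PT2399, and so did the stretch from 29980001 to 31820000, with 8.11 and 7.82. Just inside it was a domain of 1 window on chromosome 4, from 40470001 to 40570000, with 8.03 and 8.21.

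High domains, in which 100 kb windows with both levels at least 8 were merged over the sets, numbered 8 on chromosome 4 and 5 on chromosome 13. They covered 9.04 Mb (4.73% of the length) and 2.90 Mb (2.52%), the third smallest and the smallest share of the 23 chromosomes, with chromosome 18 between them at 2.74%. Chromosome 19 stood at the other end with 80.3%. The chromosome 13 length includes its first 20.14 Mb, all at the floor. Its rank against chromosome 18 without that run was not computed. By the share of windows with both levels at least 8 (median over sets), the order differed. Chromosome 18 was lowest with 1.54%, followed by chromosome 13 with 2.00% and chromosome 4 with 4.19%. The median domain length was 185 kb on chromosome 4 and 180 kb on chromosome 13. Together these domains held 715 and 206 windows of the 9 sets.

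The domain at the start of chromosome 4, from 10001 to 4780000, was 4770 kb long and had the highest levels of either chromosome. Its 407 windows had a median of 10.44 with DMSO and 10.29 with PT2399, and DMSO values from 8.02 to 11.56. The next long one, from 5610001 to 8630000, was 3020 kb with medians of 8.99 and 8.98 over 246 windows, and DMSO did not exceed 9.74 in it. Between them lay 3 domains of 120 to 150 kb that stayed between 8.11 and 8.55 in DMSO. A domain of 220 kb from 9980001 to 10200000 stood alone, with medians of 9.10 and 9.23, and 77.8% of the windows within 200 kb of it were at the floor. Far from the chromosome end, a domain of 540 kb from 39370001 to 39910000 had medians of 8.65 and 8.35.

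On chromosome 13 the domain at the very end, from 113210001 to 115080000, was 1870 kb long, with medians of 9.25 and 9.16 over 148 windows. A domain of 540 kb from 110900001 to 111440000 had medians of 8.57 and 8.47. Those from 111520001 to 111660000 and from 112710001 to 112880000 were 140 and 170 kb long and had DMSO medians of 8.37 and 8.26. Only the domain from 45830001 to 46010000, 180 kb with medians of 8.38 and 8.27, lay outside the end of the chromosome. All 5 had levels that overlapped those of the smaller chromosome 4 domains, and none of their windows reached the 10.44 median of the first domain of chromosome 4.

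With PT2399 the level in the high windows was slightly lower at the median, and the change, PT2399 minus DMSO, was small against its spread over windows. It was -0.10 on chromosome 4 (range over sets -0.12 to -0.07, quartiles over windows -0.20 and 0.065) and -0.055 on chromosome 13 (range -0.08 to -0.03, quartiles -0.17 and 0.05). Lower values were found in 67.8% of the high windows of chromosome 4 and 62.6% of those of chromosome 13. The other chromosomes had a median of -0.12 in windows of this kind, and the measured windows of the whole genome, with both levels at least 2, one of -0.13. Set against that genome-wide shift, the medians of both chromosomes turned positive, to 0.02 and 0.075. Scaling and treatment cannot be told apart for shifts of this size.

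The domains differed among themselves in their change. In the first domain of chromosome 4 the median was -0.12 (quartiles -0.19 and -0.03), and 79.6% of windows were lower. From 5610001 to 8630000 the median was 0.005 with wider quartiles of -0.21 and 0.28, and 49.6% were lower. In the isolated domain from 9980001 to 10200000 all 11 windows were higher, by 0.03 to 0.36, with a lowest FDR of 0.4 in the authors' deposited tables. At 39370001 to 39910000 the median was -0.305 (quartiles -0.52 and -0.06), and the lowest FDR was 0.14. The end domain of chromosome 13 had a median of -0.05 (quartiles -0.15 and 0.05), and its lowest FDR was 0.0564. The medians of all 5 chromosome 13 domains were below 0, from -0.285 to -0.03, and 5 of the 8 on chromosome 4 were. Set against the genome-wide shift, the chromosome 13 medians lay from 0.005 to 0.10, except -0.16 in the domain of 2 windows from 111520001. Those of chromosome 4 then ran from -0.18 to 0.31.

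**Figure D3:**
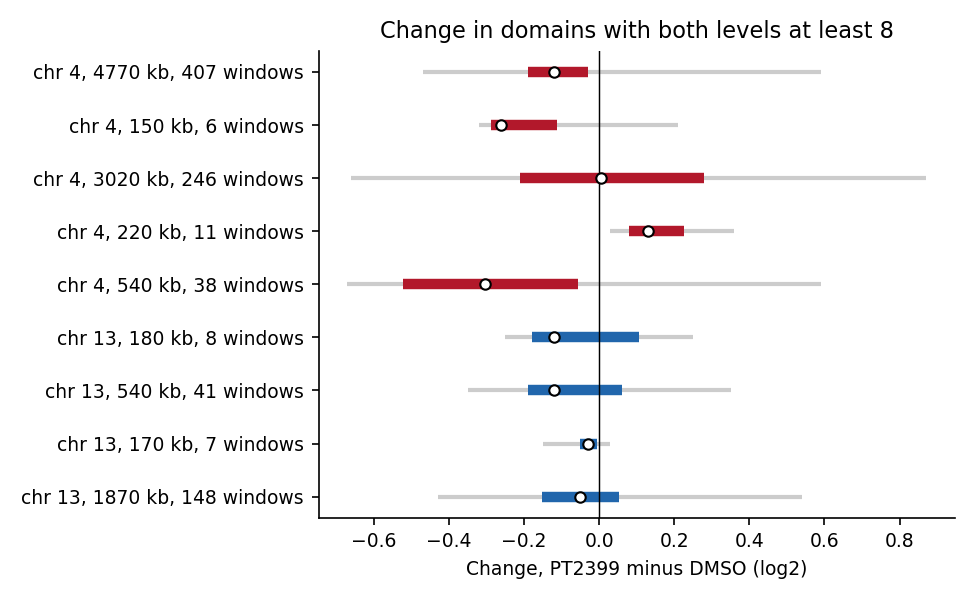
Change in SON log2 concentration, PT2399 minus DMSO (x axis), for the 9 high domains with at least 5 windows, with the median (open point), quartiles (thick bar) and range (thin bar) over overlapping windows. The domain of 3020 kb on chromosome 4 has its median at 0.005 and the widest range, from -0.66 to 0.87.

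At matched level the pattern depended on the level itself. For windows with a mean of 8 to 9, the median change was 0.05 on chromosome 4 (261 windows, quartiles -0.23 and 0.33), -0.05 on chromosome 13 (120 windows) and -0.12 on the other chromosomes. At 9 to 10 it was -0.07, -0.07 and -0.14. At 10 to 11, all 220 windows of chromosome 4 belong to its first domain, and their median was -0.15 (92.7% lower) against -0.14 on the other chromosomes. From 8 to 10 the quartile ranges of the 3 groups overlapped, and no test was made because neighbouring windows share DNA. Within chromosome 4 the long domains had like medians at the same level: at 8 to 9 it was 0.11 in the first and 0.085 in the one from 5610001, and at 9 to 10 it was -0.09 and -0.08. The domain from 39370001 to 39910000, whose windows all lie at 8 to 9, stood lower at -0.305, and the 54 windows of the chromosome 13 end domain at that level had a median of 0.01.

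**Figure D4:**
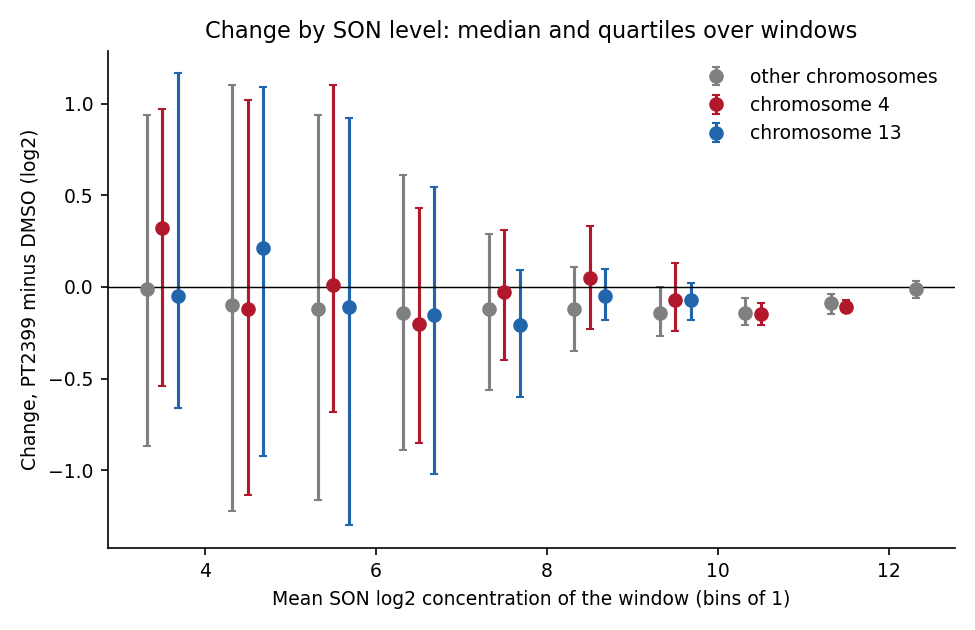
Median change, PT2399 minus DMSO, with quartiles over windows (y axis), by mean SON log2 concentration (x axis), for chromosome 4, chromosome 13 and the other chromosomes. Bins of 1 from a level of 3 upward with at least 20 windows are shown. From the bin of 5 to 6 upward the spread narrows as the level rises. The quartiles of the 3 groups overlap at 8 to 9 and 9 to 10.

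Few windows passed an FDR of 0.01 in the authors' deposited tables. Of the 2164 chromosome 4 windows that entered the deposited adjustment, 7 were lower (0.323%) and 10 higher (0.462%) with PT2399, against 1.62% lower and 0.365% higher over the genome. Chromosome 13 had 5 lower (0.315%) and 4 higher (0.252%) of 1589. Among measured windows the counts were 6 lower and 4 higher of 1528 on chromosome 4, and 3 lower and 0 higher of 1094 on chromosome 13 (42 and 15 at an unadjusted p below 0.05), where the genome had 1.55% and 0.0853%. Among the high windows, chromosome 4 had 3 lower and 4 higher of 715 and chromosome 13 had 0 of 206 in either direction (7 lower and 4 higher at an unadjusted p below 0.05), against 2.39% and 0.0332%. The lower shares of both chromosomes were below the genome's in each of these 3 classes. The higher share was above it in each on chromosome 4 (0.462%, 0.262% and 0.559%) and below it on chromosome 13. The 4 measured windows called higher on chromosome 4 are the same as the 4 high ones. They overlap each other and make up 1 region, so this is 1 event and not a trend. The classes were not matched for level: off the floor, 59.0% of chromosome 4 and 71.6% of chromosome 13 windows had a mean below 7, against 34.0% elsewhere. The part of the level in these shares was not tested. The called windows merged into 4 lower and 5 higher regions on chromosome 4 and 3 of each on chromosome 13. In 50 kb windows, 6 lower and 7 higher of 4700 passed on chromosome 4, and 3 lower and 1 higher of 3440 on chromosome 13, where the genome had 0.458% and 0.131%. At 50 kb a minimum of 7 marks the high windows, and 3 lower and 0 higher of 1369 passed on chromosome 4 (164 and 57 at an unadjusted p below 0.05) and 0 of 428 in either direction on chromosome 13 (17 and 6), against 0.523% and 0.00596%.

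The region that was higher from a high level lay inside the domain from 5610001 to 8630000, at 7120001 to 7250000 on chromosome 4. It was singled out for its change, so its values are a description. In its best window, from 7130001 to 7230000, DMSO stood at 8.59 and PT2399 at 9.46, so that PT2399 was at 183% of DMSO. The change of 0.87 had an FDR of 0.000271 in the authors' deposited table. The 4 called windows ran from 8.59 to 8.70 in DMSO and from 9.37 to 9.46 in PT2399. The DMSO level dropped along the domain here, from 9.74 in the window that starts at 6980001, while PT2399 stood at 9.45 in that window and at 9.46 in the best one. PT2399 was above DMSO in 52 consecutive windows from 7050001 to 7720000, a run of 670 kb with a median change of 0.50, in which DMSO ran from 7.96 to 9.28 and PT2399 from 8.62 to 9.50. Only 4 of these 52 windows were called. At 50 kb the best window of the region went from 7.41 to 8.36 and was not called, since the authors' deposited table gave it an FDR of 0.0346. Of 3140 measured 50 kb windows on chromosome 4, 0 were called higher (85 at an unadjusted p below 0.05), where the genome had 0.0291%.

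In the same domain, nearer the chromosome's start, lay a region called lower, from 6270001 to 6380000. Its best window stood at 9.54 with DMSO and 8.88 with PT2399, or 63.3% of the signal without the drug. The authors' deposited table gave this change of -0.66 an FDR of 0.00249. At 50 kb the window from 6290001 to 6340000 was called too, with 8.58 and 7.51 and an FDR of 0.00421 in the authors' deposited table. In the first domain, the window from 1210001 to 1310000 stood at 11.08 and 10.75. Its change of -0.33 was called in 1 of the 9 sets, at an FDR of 0.00492 in the authors' deposited table. At 50 kb, windows from 265001 to 315000 and from 2520001 to 2570000 in that domain were called lower, with changes of -0.83 and -0.53, and together with the window at 6290001 they made 3 of 3140 measured 50 kb windows called lower on this chromosome, against 0.357% over the genome. After recentring on the genome-wide shift, these lower regions were no longer called at an FDR of 0.01 (smallest and largest FDR 0.0509 and 0.311). Their changes kept their direction. At 100 kb they became -0.53 at 6270001 to 6380000 and -0.20 at 1210001 to 1310000, and at 50 kb -0.95, -0.71 and -0.41 in the windows starting at 6290001, 265001 and 2520001. The higher region at 7120001 to 7250000 was still called, with a recentred FDR of 4.58e-05.

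Larger changes lay just outside high domains. A window must reach 8 in both treatments to belong to a domain, so a window that fell this far could not lie inside. The place of these falls beside a domain therefore partly follows from the rule. On chromosome 4, the region from 39240001 to 39360000 ended 10 kb before the domain at 39370001. In its best window DMSO stood at 8.26 and PT2399 at 5.60, or 15.8% of DMSO. This change of -2.66 had an FDR of 9.71e-05 in the authors' deposited table. Of the 19 windows that overlap the region, 16 were lower and the median change was -0.87. The 3 nearest the domain, starting at 39330001, 39340001 and 39350001, were higher by 0.72, 0.68 and 0.73 and were not called. The first windows inside the domain, starting at 39370001 and 39380001, had changes of 0.05 and -0.13 and were not called. After recentring the region was still called (FDR 0.000627). Its best 50 kb window, with 7.13 and 3.94, had an FDR of 0.0178 in the authors' deposited table and was not called.

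The region lower on chromosome 13, from 45710001 to 45830000, ended where the domain at 45830001 began. Singled out for its change like the chromosome 4 rise, it is given as a description. The 3 called windows stood at 7.88, 7.82 and 7.78 with DMSO and at 4.91, 4.83 and 4.31 with PT2399. The first of them changed by -2.97, to 12.8% of DMSO, and had the lowest FDR in the authors' deposited table, 0.000243. All 19 windows that overlap the region were lower, with changes from -3.47 to -0.20 and a median of -1.27, while the first window of the adjoining domain, at 8.15 in DMSO, changed by -0.15. PT2399 was below DMSO in 34 consecutive windows from 45510001 to 45970000. This was the only chromosome 13 region in the authors' list of lower windows, which held 3 windows of this chromosome at 100 kb and 0 at 50 kb. KCTD4 was the only listed gene of the chromosome, and its place relative to this region was not tested. At 50 kb the best window, with 6.92 and 3.39, was not called (the authors' deposited table gave 0.103 as its FDR).

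Around this fall, 2 regions rose from or near the floor. From 45420001 to 45530000 the called windows stood at -0.07 and 1.79 with DMSO and at 7.26 and 7.10 with PT2399. From 46060001 to 46160000 DMSO was at -0.07 and PT2399 at 6.56. The authors' deposited table gave their best windows FDRs of 0.000157 and 0.00919. They lay 300 kb before and 50 kb after the domain. The stretch off the floor that holds all of them, from 45070001 to 46240000, thus had 3 windows called lower and 3 called higher, and over its 76 measured windows the median change was 0.045. A fold from the floor has no measured value on its low side, so the size of these rises cannot be read from the change.

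**Figure D5:**
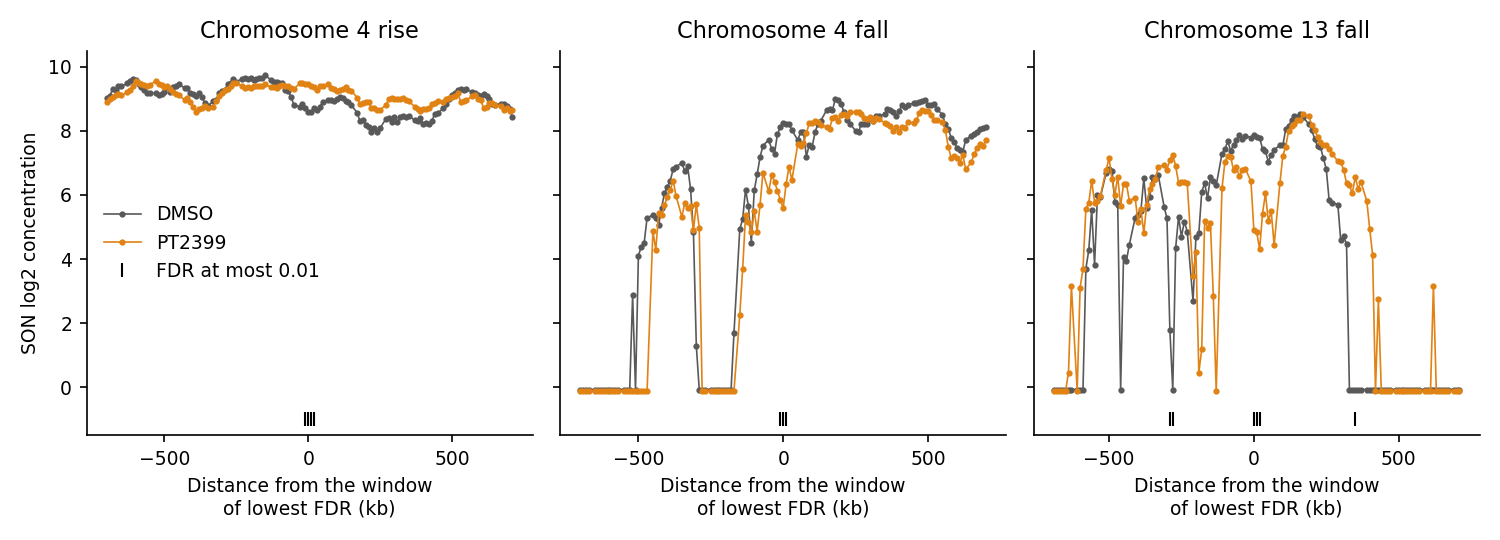
SON log2 concentration (y axis) in 100 kb windows against distance in kb from the window of lowest FDR (x axis), for the rise on chromosome 4, the larger fall on chromosome 4 and the fall on chromosome 13; ticks at the bottom mark windows with an FDR of at most 0.01. In the rise PT2399 stays near 9.46 where DMSO drops to 8.59, and in both falls PT2399 lies below DMSO beside a domain where the lines lie closer together.

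The remaining called regions were all at the floor in 1 treatment. On chromosome 4, 4 regions rose from the floor to between 6.52 and 6.90 (25150001 to 25260000, 25910001 to 26010000, 41120001 to 41230000 and 57300001 to 57400000), and 1, from 74680001 to 74780000, fell from 6.69 to it. On chromosome 13 a region from 30630001 to 30730000 rose to 6.78, and those from 99720001 to 99820000 and from 100180001 to 100280000 fell from 6.56 and 6.55. Of these 8 regions, 1 held a 50 kb window called within it: at 25910001 to 26010000 the window from 25960001 stood at 6.60 with PT2399, and the authors' deposited table gave it an FDR of 0.00424. In the other 7 regions the best 50 kb window inside had an FDR from 0.019 to 0.277 in the authors' deposited table. A called 50 kb window from 74750001 to 74800000 overlapped the end of the fall at 74680001 to 74780000 (6.77 to the floor), and one from 57255001 to 57305000 the start of the rise at 57300001 to 57400000. Windows at the floor in DMSO and at 2 or more with PT2399 made up 13.7% of the windows off the floor on chromosome 4 and 15.2% on chromosome 13, against 5.98% on the other chromosomes but Y. The reverse made up 11.5%, 12.1% and 5.37%. The levels differed too: 59.0% and 71.6% of the windows off the floor had a mean below 7 on these chromosomes and 34.0% elsewhere. The part of the level in these shares was not tested. Among windows below 7 the shares rising from the floor were 23.3%, 21.3% and 17.6%, and those falling to it 19.4%, 16.9% and 15.8%. Of these changes, 6 of 301 rises (1.99%) and 1 of 251 falls (0.398%) were called on chromosome 4, and 3 of 245 (1.22%) and 2 of 195 (1.03%) on chromosome 13, against 4.51% of rises and 4.99% of falls on the other chromosomes but Y.

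Gene groups of these chromosomes were looked for in the authors' lists, with no gene carrying a fold of its own, and are read against the 4.29% of all coding genes in the 100 kb list. The groups were chosen with earlier results of these data known, so the counts are a description. They are not separate, since COL4A1 and COL4A2 are among the genes that count in both the chromosome 13 group and the hypoxia group. The share of 4.29% lies within the Wilson interval of each of the 3 groups. In groups of 30 or 15 genes even a count of 0 gives an interval that holds it, so a shortfall could not show. The intervals also treat neighbouring genes as independent, which they are not. Of 30 genes from the end of the chromosome 4 short arm, where the highest SON levels lay, 2 were in the 100 kb list, CTBP1 and MAEA (Wilson 95% interval 1.85% to 21.3%), and 0 in the 50 kb list. FGFR3, a growth factor receptor, NSD2, a histone methyltransferase, and HTT, which encodes huntingtin, were in neither. Of 30 genes from the end of the chromosome 13 long arm, 0 were in either list (upper Wilson limit 11.4%), among them LAMP1, a lysosomal membrane protein, the clotting factor genes F7 and F10, and COL4A1 and COL4A2, which encode collagen IV of basement membranes. Of 15 genes linked to hypoxia or angiogenesis, among them VEGFC, KDR and FLT1 of the VEGF pathway and ANKRD37, a HIF target, 0 were listed (upper limit 20.4%). Absence from the lists says only that no called lower window was assigned to the gene. A window at the floor in DMSO cannot be called lower. Genes were not placed in windows here, so how many of them could have been listed is unknown.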

How the data were processed

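SON TSA-seq signal in 786-O cells with DMSO or PT2399 was taken from the tables the authors deposited. Bowtie2, Picard and DiffBind, bedtools and the hg19 build are listed in the submitters' processing notes. The sources used here do not give input use, read counting or library scaling. The deposited values are log2 concentrations per the file headers, 1 mean per treatment, with a log2 fold of control minus treatment that matched the difference of the concentrations to within 0.01. Per the file headers, a p-value and an FDR go with each window, and between 11732 and 11743 of 30924 windows a 100 kb set had an FDR below 1. Control was read as DMSO from the column names.

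A window was called at a deposited FDR of at most 0.01, as adjusted by the authors within each set. Windows were merged over the 9 sets where they overlapped by at least 1 bp. Shares and medians were computed per set and given as the median over sets. Recentring subtracted the median change of the measured windows of each set (from -0.13 to -0.12). It used the standard error implied by the fold and the p-value, with the median of 20 concentration bins where the change was under 0.1 or p was 0.5 or more, and Benjamini-Hochberg adjustment of two-sided normal p-values. It was run on measured windows only and tested on simulated data. Linear signal was summed over windows off the floor.

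Named regions were the 5 longest high domains of each chromosome and the called regions. Named genes were those of the authors' lists on these chromosomes. The chromosomes, loci and gene lists were chosen with earlier results of these data known. Alternatives covered the floor, the level minimum, the number of sets, the FDR, recentring and 50 kb windows, where a minimum of 7 replaced 8. The software was Python 3.11.15, matplotlib 3.10.9, numpy 2.4.6, pandas 2.3.3 and scipy 1.17.1.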

Additional observations from a re-analysis of the deposited data

How the results depend on the processing

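No paired analysis was possible because the deposited tables hold 1 mean per treatment and no library values, and for the same reason no replicate could be left out. In 50 kb windows the floor share was 85.1% on chromosome 4 and 82.0% on chromosome 13. In 100 kb windows, leaving out the first run at the floor took the chromosome 13 share from 84.4% to 81.1%. The 8 and 5 high domains became 20 and 15 in 50 kb windows, and on chromosome 13 there were 16 at a minimum of 7 and 3 at 9. Their length, 9.04 and 2.90 Mb, was 10.47 and 6.05 Mb at 7, 5.75 and 1.36 Mb at 9, 7.95 and 2.27 Mb where at least 5 sets were required, and 8.88 and 3.16 Mb in 50 kb windows. The median change of -0.10 on chromosome 4 reversed to 0.02 after recentring and was -0.12 at a minimum of 9. On chromosome 13, -0.055 reversed to 0.075, and was -0.075 at 7 and at 9 and -0.09 where DMSO alone chose the windows. Recentring removes the shift by construction; for the remaining settings the cause was not tested. Lower and higher regions on chromosome 4, 4 and 5 in the text, were 15 and 14 at an FDR of 0.05 and 1 and 1 at 0.001. Among measured windows they were 3 and 1, and after recentring, which was run on measured windows alone and so left out every region at the floor, 1 and 2. The 3 and 3 on chromosome 13 were 9 and 5 at 0.05, 1 and 1 at 0.001 and 1 and 0 among measured windows, counts that recentring left at 1 and 0, with 1 higher in 50 kb windows. The change at the chromosome 4 rise was 0.495 over all overlapping windows and 0.95 at 50 kb, where it was no longer called, and the chromosome 13 fall was -1.27 and -3.53, likewise no longer called at 50 kb.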
